A study of Mus musculus with 2 samples.

Results

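Glycosyltransferase and carbohydrate sulfotransferase genes were examined in mouse prostate tumours of 2 genotypes. The members were the rows of the deposited count table whose symbol begins with 1 of 16 family stems followed by a digit. The stems are Galnt, Galntl, B4galt, B3galt, B3gnt, B4galnt, St3gal, St6gal, St6galnac, St8sia, Fut, Chst, Mgat, Gcnt, Hs3st and Hs6st. Members numbered 109 of the 27376 genes listed, and 80 of these had a mean of at least 1 CPM (a gene's reads scaled to the size of its library) over both libraries and are called measured. The rule used symbols only and no measured value, but it was chosen with earlier results of these data known.

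Total RNA of fresh, unsorted tumour tissue at an age of 16 months gave 1 library for each genotype, Bcat_Only and Met_Bcat. In the count table the Bcat_Only library is headed with an exon 3 allele of beta-catenin together with PB Cre, and the Met_Bcat library with no allele. By its name Met_Bcat adds MET, the receptor of hepatocyte growth factor, to the beta-catenin alteration, and the series title places the study in prostate tumour formation by both pathways. The labels describe neither the MET allele, nor the cells in which the Cre is active, nor whether tissue was pooled. Neither genotype has a replicate and no test between them could be made, so each difference below is between these 2 libraries. Brackets give 95% exact (Clopper-Pearson) intervals, which cover counting error only.

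These enzymes sit mainly in the Golgi apparatus and assemble the sugar chains of secreted and membrane proteins, glycolipids and proteoglycans. Most of these families add 1 kind of sugar or sulfate, and members of a family can differ in the linkage or position they make. GALNT enzymes start mucin-type O-glycans on serine or threonine, branching and extending enzymes build the chain, and sialyl-, fucosyl- and sulfotransferases cap or modify it. Prostate epithelium secretes much glycoprotein, and altered sialylation, branching and O-glycan cores are well known in carcinomas.

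The libraries held 19301062 reads assigned to genes in Bcat_Only and 20117724 in Met_Bcat. They also differed in the RNA of cell types other than tumour epithelium. All 10 fibroblast markers were at least 2-fold lower in Met_Bcat over their whole interval, with a summed level of 27029 CPM in Bcat_Only and 1025 CPM in Met_Bcat. So were all 8 neutrophil markers (7050 and 767 CPM, Elane at 0 reads in Met_Bcat), all 8 macrophage markers (3194 and 573 CPM), all 6 smooth muscle markers (548 and 46.0 CPM) and all 7 seminal vesicle genes (6875 and 4.74 CPM, with Svs3a, Svs3b and Svs6 at 0 in Met_Bcat). Of the 6 B and plasma cell markers 5 were lower (1254 and 499 CPM), of 8 endothelial markers 6 (645 and 330 CPM) and of 8 T and NK cell markers 2 (54.7 and 34.1 CPM). Of 13 luminal epithelial markers 5 were higher and 1 was lower (4753 and 8203 CPM), and of 8 basal markers 4 were higher and 1 was lower (959 and 2196 CPM). In whole tissue, fewer cells of a type and less RNA per cell cannot be told apart. The part of these cell types in the differences below was not tested.

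A larger share of the members than of all measured genes was lower in Met_Bcat. The share that was higher was close to that of all measured genes. Counts of higher and lower genes take those whose ratio was at least 2-fold even at the end of its interval closer to 1 (the 2-fold rule), and the fold of any other gene is given as a value. Of the 80 measured members 5 (6.25%) were higher in Met_Bcat, beside 4.42% of all 14354 measured genes, and 23 (28.8%) were lower, beside 14.6%. At 4-fold, 3 members were higher, beside 1.75% of all genes, and 9 were lower, beside 7.57%. The median log2 ratio of CPM plus 0.5 was −0.51 over the members and 0.030 over all measured genes. The higher members were St8sia2, Hs3st6, B3gnt7, B4galnt3 and B4galt4, each from a different family, and each of these families also held a lower member. St8sia2, Hs3st6 and B4galnt3 had 0.489, 0.326 and 0.868 CPM in Bcat_Only and passed the minimum of 1 CPM only through Met_Bcat. Likewise the lower members Hs6st2, Gcnt3 and B3gnt5 stood below 1 CPM in Met_Bcat and passed it only through Bcat_Only. Together the 109 members took 0.344% of all reads in Bcat_Only and 0.312% in Met_Bcat.

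**Figure D1:**
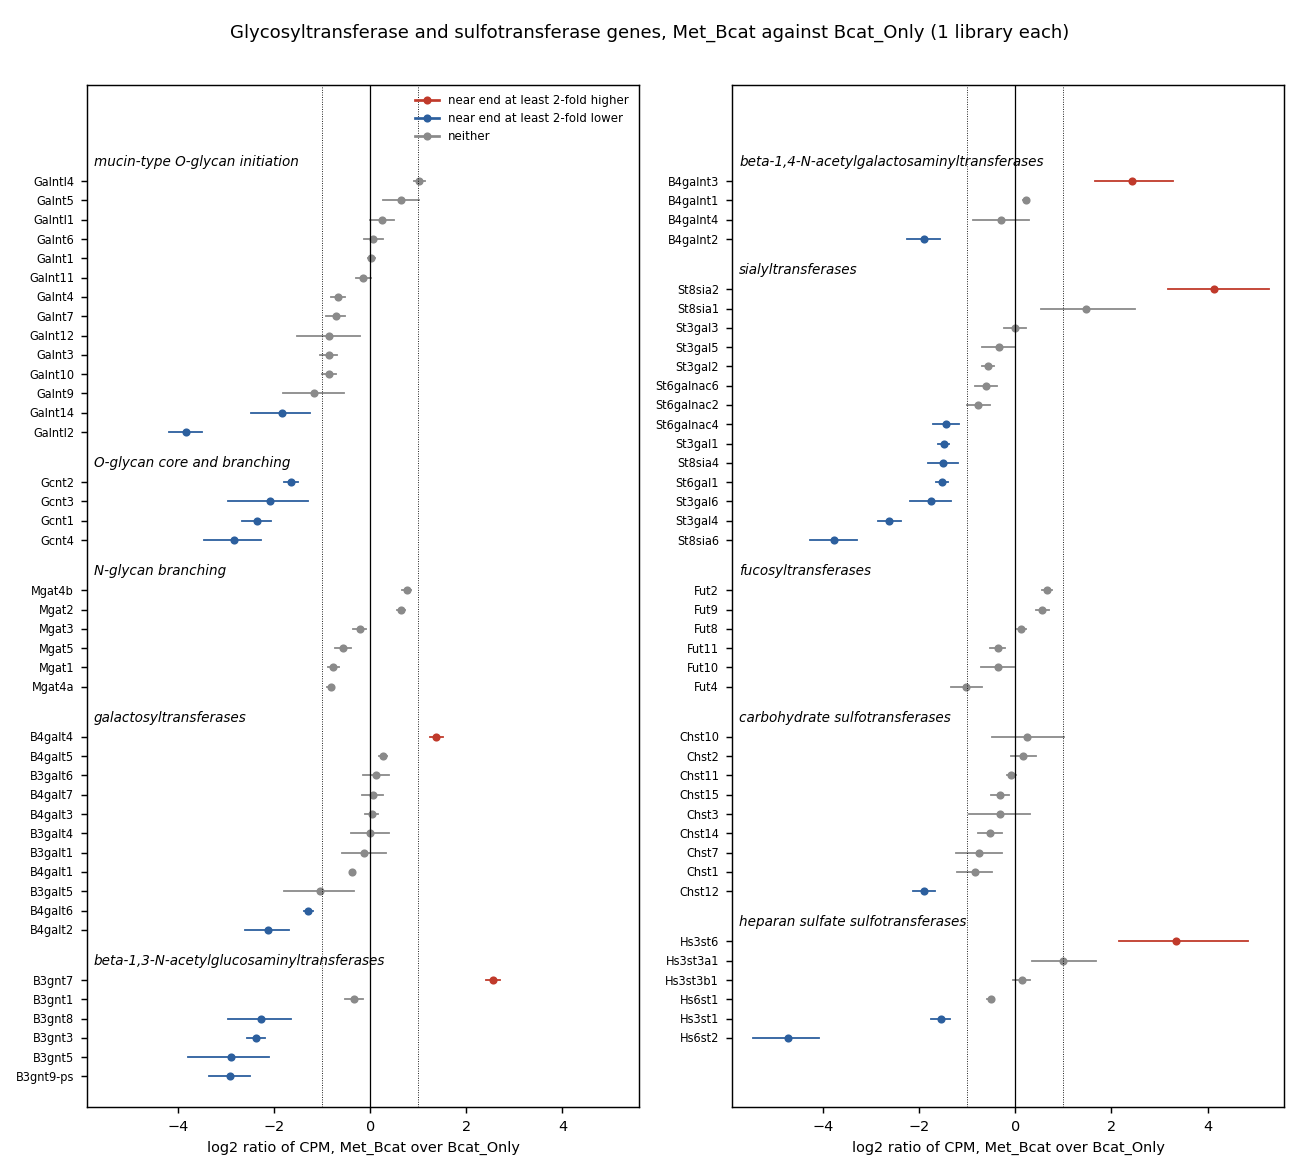
Log2 ratio of CPM, Met_Bcat over Bcat_Only, for each of the 80 measured genes by role, with the 95% exact interval for counting error as a line. Dotted lines mark 2-fold. All 4 measured Gcnt genes lie to the left, and the 5 red genes are the higher members.

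**Figure D2:**
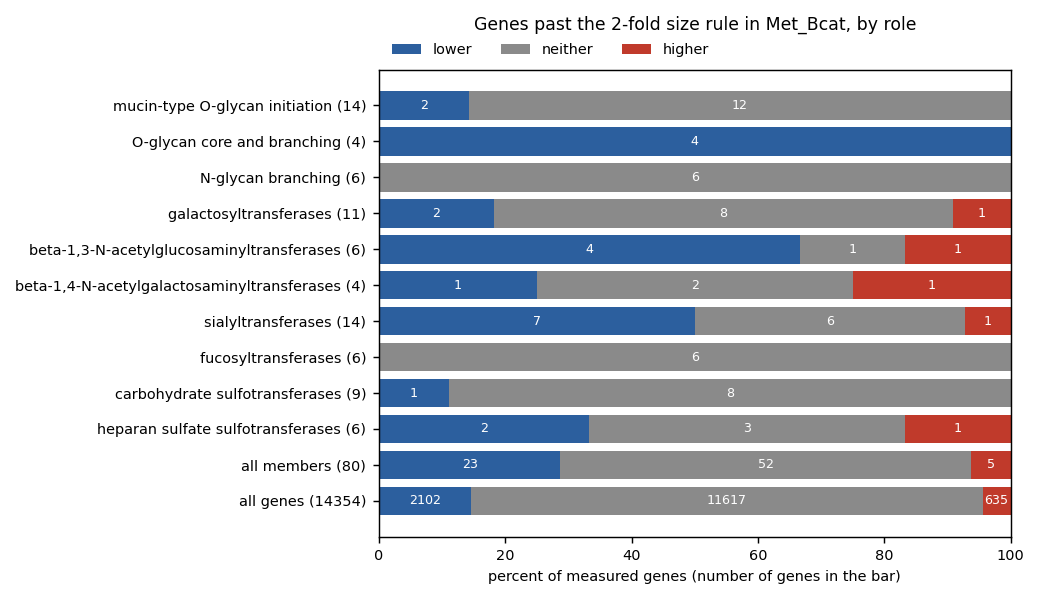
Share of measured genes in each role that were lower (blue), neither (grey) or higher (red) in Met_Bcat by the 2-fold rule, with the number of genes in each bar. The bar for O-glycan core and branching holds the 4 measured Gcnt genes, all lower, and no N-glycan branching gene or fucosyltransferase passed in either direction.

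Per length, the galactosyltransferase gene B4galt1 and the ganglioside enzyme gene B4galnt1 had the highest levels of all members in both libraries. B4galt1, whose product adds galactose to many N- and O-glycans, stood at 112 RPKM (CPM per kilobase of exon) in Bcat_Only and 86.6 RPKM in Met_Bcat. B4galnt1 stood at 67.7 and 79.0 RPKM. Next in Bcat_Only were Hs6st1 at 45.7, Mgat2 at 40.5 and Galnt1 at 30.7 RPKM. In Met_Bcat they were Mgat2 at 63.0, B3gnt7 at 58.2 and Mgat4b at 46.8 RPKM. Thus 1 of the 5 higher members, B3gnt7, entered this group in Met_Bcat, having stood at 9.90 RPKM in Bcat_Only. Of the other higher members, B4galt4 had a level of 31.0 RPKM in Met_Bcat, whereas St8sia2, Hs3st6 and B4galnt3 reached 1.59, 2.45 and 1.22 RPKM.

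**Figure D3:**
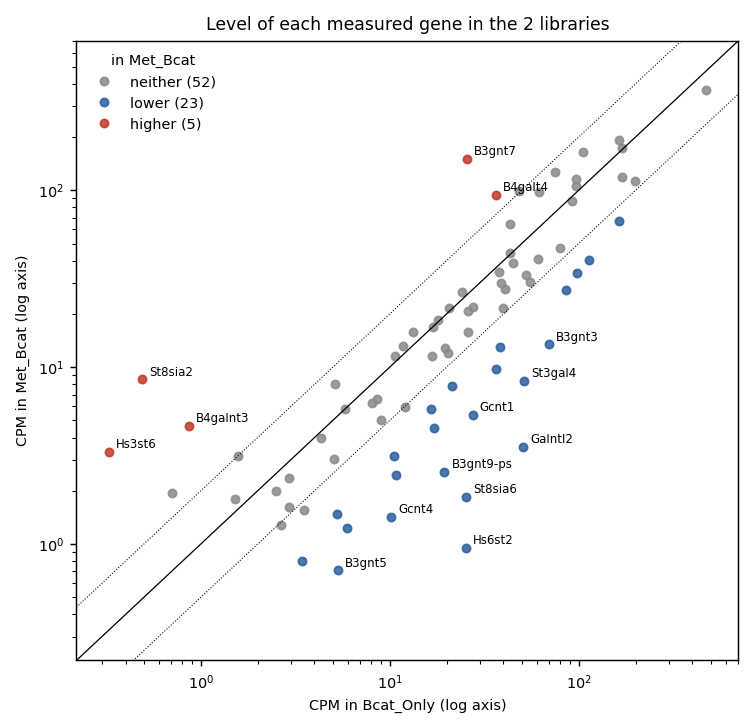
CPM of each measured gene in Bcat_Only (horizontal) and Met_Bcat (vertical), both on log axes, with the line of equal level and dotted lines at 2-fold. B3gnt7 and B4galt4 are higher at well-expressed levels, while St8sia2, Hs3st6 and B4galnt3 lie below 1 CPM in Bcat_Only.

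St8sia2 and B3gnt7 (higher) and Galntl2 and St8sia6 (lower) were among the genes farthest from a ratio of 1 in each direction and have 1 promoter entry each. Their promoters are printed so that genes that differ in opposite directions can be compared at their start sites. The sequences are from RefSeq on GRCm38.p6, from 250 bases before to 50 bases after the start: chr7:74013633-74013932 on the minus strand for St8sia2, chr1:86302971-86303270 on the plus strand for B3gnt7, chr14:32028853-32029152 on the plus strand for Galntl2 and chr2:13793471-13793770 on the minus strand for St8sia6. Capital letters mark the core of the site bound by TCF and LEF factors, the DNA partners of beta-catenin (CTTTGA), and the GC box (GGGCGG), each searched on both strands, and no 2 marked motifs overlapped.
St8sia2: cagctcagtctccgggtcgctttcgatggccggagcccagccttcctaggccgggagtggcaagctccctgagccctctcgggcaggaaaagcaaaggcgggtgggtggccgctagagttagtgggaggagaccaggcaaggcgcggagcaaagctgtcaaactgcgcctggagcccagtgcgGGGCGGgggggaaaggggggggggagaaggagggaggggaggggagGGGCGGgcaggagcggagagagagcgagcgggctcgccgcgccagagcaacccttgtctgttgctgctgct
B3gnt7: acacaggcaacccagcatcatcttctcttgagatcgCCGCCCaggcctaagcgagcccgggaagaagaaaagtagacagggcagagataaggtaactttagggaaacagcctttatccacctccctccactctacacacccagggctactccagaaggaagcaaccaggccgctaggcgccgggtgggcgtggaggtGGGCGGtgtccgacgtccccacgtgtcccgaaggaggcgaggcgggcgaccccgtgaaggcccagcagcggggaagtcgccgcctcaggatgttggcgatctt
Galntl2: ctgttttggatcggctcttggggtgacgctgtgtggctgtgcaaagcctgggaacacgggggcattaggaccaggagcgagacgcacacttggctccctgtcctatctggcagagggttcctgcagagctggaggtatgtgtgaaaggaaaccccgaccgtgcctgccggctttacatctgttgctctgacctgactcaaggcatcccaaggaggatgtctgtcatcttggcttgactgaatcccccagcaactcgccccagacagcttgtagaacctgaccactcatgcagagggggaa
St8sia6: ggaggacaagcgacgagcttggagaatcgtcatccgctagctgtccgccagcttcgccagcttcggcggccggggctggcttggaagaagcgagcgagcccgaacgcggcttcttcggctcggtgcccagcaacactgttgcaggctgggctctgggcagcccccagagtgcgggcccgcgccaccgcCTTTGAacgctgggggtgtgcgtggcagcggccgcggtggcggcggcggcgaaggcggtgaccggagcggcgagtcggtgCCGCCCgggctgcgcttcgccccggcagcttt
The St8sia2 and B3gnt7 windows held 2 GC boxes each and no TCF/LEF core, the Galntl2 window held neither motif, and the St8sia6 window held 1 of each. Of the measured members 63 matched the promoter table by symbol, with 87 promoters. The TCF/LEF core was found in 11.5% of these and in 16.0% of all 32851 promoters, and the GC box in 57.5% and 35.7%. Among the higher members, B3gnt7, St8sia2, B4galnt3 and B4galt4 matched, with 4 promoters: 4 held a GC box and 0 a TCF/LEF core. Of the 28 promoters of lower members, 57.1% held a GC box and 10.7% a TCF/LEF core. These matches describe letters in a window and not binding.

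The enzymes that start mucin-type O-glycans were mostly within 2-fold. Of 18 Galnt and Galntl genes 14 were measured, 0 of them higher and 2 (14.3%) lower, near the 14.6% of all measured genes. Their median log2 ratio was −0.68. Galntl2, named Galnt15 in the newer annotation (ENSMUSG00000021903, mm9 chromosome 14, 32842175 to 32875383), had 937 reads (50.9 CPM) in Bcat_Only against 75 (3.56 CPM) in Met_Bcat, 14.3-fold lower (11.3 to 18.3). Galnt14 had 97 and 31 reads, or 5.26 and 1.47 CPM, 3.58-fold lower (2.37 to 5.55). Among the 12 others Galntl4, now Galnt18, was at the edge of the rule, with 892 and 2075 reads (48.4 and 98.5 CPM) and a ratio of 2.03 (1.88 to 2.20). It had the highest level per length of this group in Met_Bcat, 38.2 RPKM, against 31.2 RPKM for Galnt1. Galnt1, the highest of the group in Bcat_Only, barely differed, with 169 and 172 CPM and a ratio of 1.02 (0.969 to 1.07). Galnt9, with 65 and 33 reads, was 2.25-fold lower in Met_Bcat (1.46 to 3.54). Galnt3, Galnt10 and Galnt12 each had a level 1.82-fold lower, and Galnt7 one 1.65-fold lower. All of these were short of the rule. Galnt2 held 8 and 3 reads. Another gene overlaps it on the same strand in the table, so its reads may be assigned elsewhere.

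The Gcnt genes, which encode branching enzymes of O-glycans and of lactosamine chains, were lower. Of 5 Gcnt genes 4 were measured and all 4 passed the rule. The family had 2336 reads in Bcat_Only and 735 in Met_Bcat, and its summed CPM was 3.64-fold lower (3.35 to 3.96). The core 1 synthase gene C1galt1, read from another list, had 1118 and 874 reads, a level 1.46-fold lower (1.34 to 1.60) that was short of the rule. Its chaperone gene C1galt1c1 had 439 and 583 reads, a ratio of 1.16 (1.02 to 1.32). Gcnt1, which makes the core 2 branch on O-glycans, had 506 and 113 reads, or 27.5 and 5.36 CPM, 5.12-fold lower (4.17 to 6.34). Gcnt4, another core 2 enzyme gene, had 188 and 30 reads, 7.17-fold lower (4.86 to 10.9), and Gcnt3, which serves mucin cores, had 63 and 17 reads, 4.24-fold lower (2.45 to 7.73). Gcnt2, whose product branches lactosamine chains to form the I antigen, was the highest of the family per length at 13.7 and 4.35 RPKM and was 3.14-fold lower (2.85 to 3.46). Its share of the family's reads was 67.6% (65.7% to 69.5%) in Bcat_Only and 78.2% (75.1% to 81.2%) in Met_Bcat. Core 2 enzymes are also active in leukocytes. The neutrophil and macrophage markers given above were all lower in the same library, as were 5 of 6 B and plasma cell markers. Of 8 T and NK cell markers only 2 were. Whether these cells bear on the Gcnt genes was not tested.

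N-glycan branching genes showed opposite shifts of modest size, with none of 6 measured past the rule in either direction. Mgat1, which opens the pathway to complex N-glycans, had 79.6 and 46.9 CPM, 1.70-fold lower (1.57 to 1.84). Mgat2, which starts the next antenna, had 106 and 165 CPM, 1.55-fold higher (1.47 to 1.64). The isoenzyme genes Mgat4a and Mgat4b, which add the same branch, lay on opposite sides. Mgat4a had 3674 and 2378 reads, 1.77-fold lower (1.68 to 1.86), and Mgat4b had 1388 and 2684 reads, 1.69-fold higher (1.58 to 1.80). On the level per length, Mgat4a stood at 27.1 and Mgat4b at 27.7 RPKM in Bcat_Only, and at 15.3 and 46.8 RPKM in Met_Bcat. Mgat3, whose product adds the bisecting residue, was 1.17-fold lower (1.06 to 1.28), and Mgat5, whose product makes a branch often raised in carcinomas, 1.48-fold lower (1.33 to 1.65). The 6 measured Mgat genes together with 2 at 1 read or fewer gave a summed 546 and 518 CPM.

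Galactosyltransferase genes had 1 higher (9.09%) and 2 lower (18.2%) members among 11 measured, beside 4.42% and 14.6% of all measured genes. B4galt4, whose product acts on sulfated chains such as keratan sulfate (ENSMUSG00000022793, chromosome 16, 38742377 to 38769162), had 669 reads (36.3 CPM) in Bcat_Only against 1987 (94.3 CPM) in Met_Bcat, 2.60-fold higher (2.38 to 2.84). B4galt2 had 199 and 52 reads, 4.38-fold lower (3.21 to 6.06), and is overlapped by genes on both strands. B4galt6 and B4galt5 both encode enzymes that make lactosylceramide. B4galt6 had 3009 and 1406 reads, 2.45-fold lower (2.30 to 2.61), and B4galt5 1786 and 2453 reads, 1.20-fold higher (1.13 to 1.28) and short of the rule, with a log2 ratio of 0.26 that becomes −0.17 when the libraries are scaled to luminal markers. The genes for the linker of proteoglycan chains, B4galt7 and B3galt6, had ratios of 1.04 (0.892 to 1.20) and 1.09 (0.898 to 1.32). B4galt1 was 1.29-fold lower (1.25 to 1.33), with 8727 and 7727 reads.

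The B3gnt genes, most of which encode extending β1,3-N-acetylglucosaminyltransferases, had 1 gene far higher and 4 genes lower among 6 measured. B3gnt7, whose product elongates keratan sulfate chains (ENSMUSG00000079445, chromosome 1, 88199796 to 88203878), had 473 reads (25.7 CPM) in Bcat_Only against 3179 (151 CPM) in Met_Bcat, 5.88-fold higher (5.33 to 6.48). Its share of the family's reads was 16.6% (15.2% to 18.0%) in Bcat_Only and 78.9% (77.6% to 80.2%) in Met_Bcat, a measure that does not depend on how the libraries are scaled. B3gnt3, which extends core 1 O-glycans, held 45.0% (43.2% to 46.9%) and 7.05% (6.28% to 7.88%) of the same reads. In counts B3gnt3 had 1283 and 284 reads, or 69.6 and 13.5 CPM, 5.17-fold lower (4.54 to 5.90). B3gnt5, the starting enzyme of lacto-series glycolipids, had 98 and 15 reads, 7.47-fold lower (4.32 to 13.9). B3gnt8, which extends chains on N-glycans, had 110 and 26 reads, 4.84-fold lower (3.13 to 7.73). B3gnt9-ps, named B3gnt9 in the newer annotation, had 358 and 54 reads, 7.58-fold lower (5.68 to 10.3). B3gnt1, now B4gat1 and known for its part in the glycan of dystroglycan, was 1.26-fold lower (1.11 to 1.43). It is counted in this family, and in its shares, by its older symbol only. The family's reads numbered 2850 and 4029 in total, while the median log2 ratio of its measured genes was −2.08. B3gnt2, with 13 and 11 reads, is overlapped by another gene on the same strand. The family's total and the shares may therefore lack reads of B3gnt2.

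**Figure D4:**
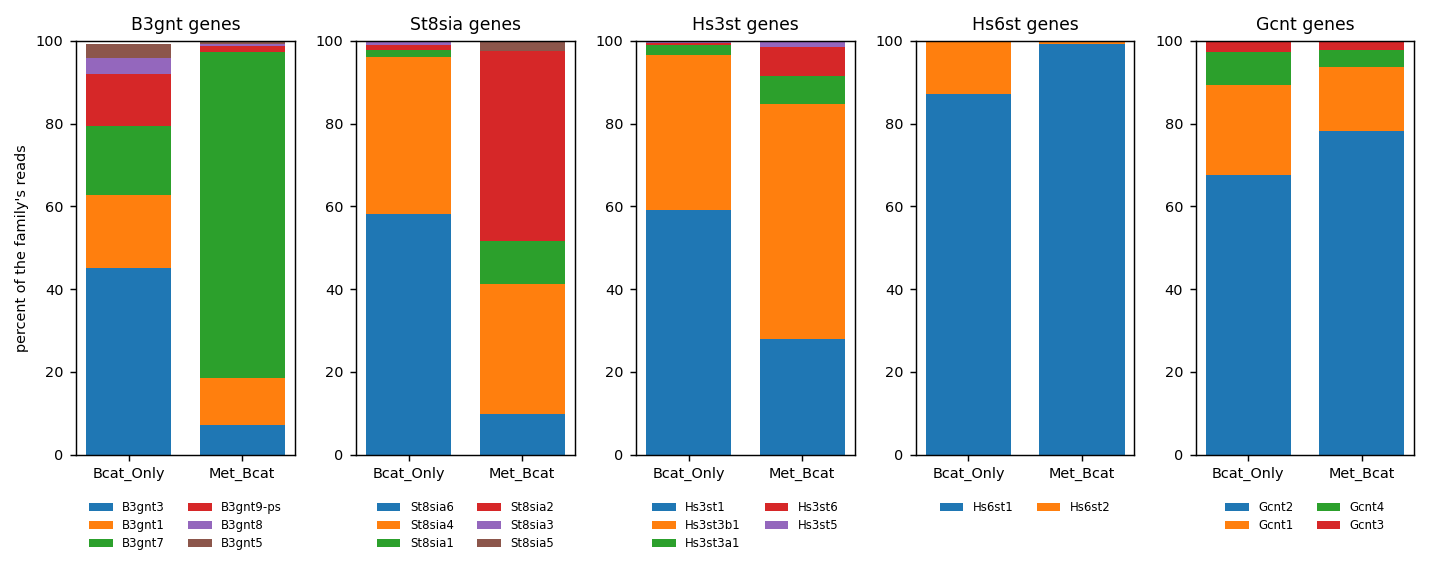
Percent of each family's reads held by each gene in Bcat_Only and Met_Bcat, for 5 families. Genes under 1% in both libraries are left out. B3gnt7 goes from 16.6% to 78.9% of the B3gnt reads and St8sia2 from 1.12% to 45.8% of the St8sia reads.

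Among the β1,4-N-acetylgalactosaminyltransferases B4galnt1, the enzyme gene of the gangliosides GM2 and GD2, held most reads in both libraries, with 3028 and 4043 and a ratio of 1.17 (1.11 to 1.22). B4galnt2, which makes the Sda blood group antigen, had 315 and 96 reads, 3.75-fold lower (2.98 to 4.77). B4galnt3, which forms LacdiNAc, a chain with N-acetylgalactosamine in place of galactose (ENSMUSG00000041372, chromosome 6, 120153091 to 120244577), had 16 and 98 reads, or 0.868 and 4.65 CPM, 5.35-fold higher (3.14 to 9.73). B4galnt4, the other LacdiNAc enzyme gene, had 54 and 50 reads and an interval that includes no difference (0.825 to 1.85, as a fold lower).

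Sialyltransferases were the role with the most lower genes. Of 20 genes 14 were measured, 7 of them lower and 1 higher, with a median log2 ratio of −1.07, and their summed CPM, 465 and 202, was 2.30-fold lower (2.22 to 2.39). Of the 6 St3gal genes 3 passed the rule, all lower. St3gal4, which caps lactosamine chains and serves sialyl Lewis x, had 952 reads (51.7 CPM) in Bcat_Only against 177 (8.40 CPM) in Met_Bcat, 6.15-fold lower (5.24 to 7.27). St3gal6, with a similar role, had 195 and 66 reads, 3.38-fold lower (2.54 to 4.54), and St3gal1, which caps core 1 O-glycans, had 2078 and 846 reads, 2.81-fold lower (2.59 to 3.05). St3gal3 did not differ beyond counting error, with a level 1.01-fold lower (0.862 to 1.17). St6gal1, the α2,6-sialyltransferase gene of N-glycans, had 1795 and 717 reads, 2.86-fold lower (2.62 to 3.13). It is also high in B cells and plasma cells. Of their markers Xbp1, which secretory epithelium also expresses, was not past the rule (789 and 482 CPM), and the other 5 were lower, among them Igj with 7706 and 329 reads. The part of these cells in the St6gal1 difference was not tested. St6galnac4 had 392 and 165 reads, 2.72-fold lower (2.26 to 3.28). St3gal4 had the highest level per length of the role in Bcat_Only, 25.5 RPKM, and St3gal2 in Met_Bcat, 8.08 RPKM.

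The α2,8-sialyltransferases exchanged their leading gene. St8sia2, a polysialic acid synthase known from the embryonic nervous system (ENSMUSG00000025789, chromosome 7, 81084005 to 81158568), had 9 reads (0.489 CPM) in Bcat_Only against 180 (8.54 CPM) in Met_Bcat, 17.5-fold higher (9.01 to 38.9). St8sia4, the other polysialic acid synthase gene, had 304 and 123 reads, or 16.5 and 5.84 CPM, 2.83-fold lower (2.29 to 3.52). Per length the order of these synthase genes turned, with St8sia4 at 3.05 and St8sia2 at 0.0909 RPKM in Bcat_Only, and 1.08 and 1.59 RPKM in Met_Bcat. St8sia6, which adds disialic acid to O-glycans (ENSMUSG00000003418, chromosome 2, 13572647 to 13715435), had 466 and 39 reads, or 25.3 and 1.85 CPM, 13.7-fold lower (9.85 to 19.5). Of the family's 801 reads in Bcat_Only St8sia6 held 58.2% (54.7% to 61.6%), and of 393 in Met_Bcat 9.92% (7.15% to 13.3%). St8sia2 held 1.12% (0.515% to 2.12%) and 45.8% (40.8% to 50.9%). St8sia1, the GD3 ganglioside synthase gene, had 13 and 41 reads, a ratio of 2.76 (1.45 to 5.61) that was short of the rule.

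No measured fucosyltransferase gene passed the rule. Fut8, which adds the core fucose of N-glycans, had 97.3 and 106 CPM, 1.09-fold higher (1.03 to 1.16). Fut2, which makes the H antigen in secretory epithelia, had 1133 and 2053 reads, 1.58-fold higher (1.47 to 1.70), and led the family per length in Met_Bcat at 33.0 RPKM. Its neighbour Fut1, which makes the same antigen and lay below the minimum with a mean under 1 CPM, had 21 reads against 0. That is 8.01-fold lower in Met_Bcat when 3 reads are put in place of 0, and at least 5.96-fold by the near end of its exact interval. Among the Lewis x enzyme genes, Fut4 had 223 and 126 reads, 2.02-fold lower (1.62 to 2.54), Fut9 had 799 and 1351 reads, 1.48-fold higher (1.35 to 1.62), and the leukocyte gene Fut7 had 10 and 3 reads. A second Fut9 entry, with 0 reads in both libraries, overlaps this one on the same strand, so reads may be misassigned. Both entries count among the 109 members.

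Carbohydrate sulfotransferase genes had 1 lower member of 9 measured (11.1%, beside 14.6% of all measured genes). Chst12, a chondroitin 4-O-sulfotransferase gene, had 669 reads or 36.3 CPM and 206 reads or 9.77 CPM, 3.72-fold lower (3.17 to 4.36). Chst11, with the same activity and the highest level per length in the group, had 1692 and 1828 reads, or 16.6 and 15.7 RPKM, and an interval that includes no difference (0.991 to 1.13, as a fold lower). The dermatan enzyme gene Chst14 was 1.44-fold lower (1.21 to 1.71), and the keratan sulfate enzyme gene Chst1 1.79-fold lower (1.40 to 2.31). The N-acetylglucosamine 6-O-sulfotransferase gene Chst2 had 217 and 279 reads and a ratio of 1.12 (0.938 to 1.35).

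Heparan sulfate sulfotransferases held the lowest ratio of all measured members. Hs6st2, a 6-O-sulfotransferase gene (ENSMUSG00000062184, chromosome X, 48740389 to 49035033), had 464 reads (25.2 CPM) in Bcat_Only against 20 (0.949 CPM) in Met_Bcat, 26.5-fold lower (17.0 to 43.9). Hs6st1, with the same activity, had 3131 and 2511 reads (170 and 119 CPM, a level 1.43-fold lower that was short of the rule), and held 87.1% (85.9% to 88.1%) of the Hs6st reads in Bcat_Only and 99.2% (98.8% to 99.5%) in Met_Bcat. Of the 3-O-sulfotransferase genes, Hs3st1, which makes the antithrombin-binding site, had 704 and 274 reads, 2.94-fold lower (2.55 to 3.39). Hs3st6 (ENSMUSG00000039628, chromosome 17, 24889933 to 24895628) had 6 and 70 reads, or 0.326 and 3.32 CPM, 10.2-fold higher (4.46 to 28.7). Hs3st3b1 had 446 and 559 reads and a ratio of 1.10 (0.966 to 1.24), and Hs3st3a1 29 and 66 reads and 1.99 (1.27 to 3.19). These 2 genes have closely similar sequences, so reads may be divided between them with error. Hs3st1 held 59.1% (56.3% to 61.9%) of Hs3st reads in Bcat_Only and 27.8% (25.1% to 30.8%) in Met_Bcat.

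The members below the minimum were 29 genes with at most 26 reads in Bcat_Only and 15 in Met_Bcat. Of these 6 had 0 reads in both libraries and 15 had at most 3 reads in each. Just inside the minimum were St8sia1 with a mean of 1.33 CPM and Chst10 with 1.66 CPM, and just outside St6galnac5 with 0.943 CPM and B3gnt2 with 0.614 CPM. Another gene overlaps B3gnt2 on the same strand in the table, so its reads may be assigned elsewhere. Of the 28 members past the 2-fold rule, 9 are overlapped in the table by another gene, 2 of them on the same strand (B4galt2 and Galnt14). The library kit keeps strand, but the strand setting of the counting was not stated, so reads of overlapping genes may be misassigned.

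Other genes of glycan assembly were read from 6 lists, and most lay within the rule. Over all measured genes 14.6% were lower and 4.42% were higher. All 9 genes of chondroitin and dermatan sulfate synthesis had ratios below 1 and 6 were lower, with a median log2 ratio of −1.25. Csgalnact1, which starts chondroitin chains, had 1736 and 44 reads, 45.1-fold lower (33.5 to 62.3), Ust was 3.72-fold lower (2.95 to 4.73), the chain polymerase gene Chsy1 3.17-fold (2.80 to 3.59) and the epimerase gene Dse 2.46-fold (2.21 to 2.73). Of the 4-O-sulfotransferase genes described above Chst12 was lower and Chst11, at a higher level per length, was not past the rule. Fibroblast markers, from a cell type rich in chondroitin sulfate proteoglycans, were lower in the same library. Whether fibroblasts bear on the chondroitin genes was not tested. Of 15 measured heparan sulfate and linker genes 0 were higher and 2 (13.3%) were lower, near the share of all measured genes. Both encode sulfatases that remove 6-O-sulfate: Sulf1 with 4455 and 437 reads, 11.7-fold lower (10.6 to 12.9), and Sulf2 4.63-fold lower (4.32 to 4.97). Of 30 donor sugar and sulfate genes 1 was lower, Gfpt2, which opens the hexosamine pathway, with 1361 and 13 reads, 120-fold lower (69.8 to 226). Its isoenzyme gene Gfpt1, at a higher level, had 6258 and 6570 reads (340 and 312 CPM). That is 1.09-fold lower (1.05 to 1.13) and short of the rule. Of 27 N-glycan assembly and trimming genes 1 was higher, the mannosidase gene Man1a at 3.36-fold (3.23 to 3.49), and 1 lower, Man2a2 at 3.06-fold (2.84 to 3.31). Among 6 genes of core 1 and glycolipid starts, the globoside enzyme gene A4galt was 2.32-fold higher (2.21 to 2.44). Ggta1 was 3.85-fold lower (3.44 to 4.32), B3galnt1 2.97-fold (2.44 to 3.64) and the glucosylceramide synthase gene Ugcg 2.33-fold (2.21 to 2.45). None of 3 measured sialidase genes passed the rule.

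The direction of small differences depends on scaling. Against the TMM scaling used here (trimmed mean of M values), total counts shift each log2 ratio by 0.13 and a scaling that sets the median luminal epithelial marker to no difference shifts it by −0.43. Under the luminal scaling 4 members were higher and 28 lower, or 87.5% lower among those past the rule against 82.1% under TMM, and among all genes 88.1% against 76.8%. Since that scaling lowers every ratio, it bears on the higher members: 4 of the 5 were still higher, and B4galt4 was not, its log2 ratio going from 1.38 to 0.94. Total counts raise every ratio, and all 23 lower members were still lower there.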

How the data were processed

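Read counts per gene on mm9 were deposited by the authors as whole numbers, not normalised. TopHat2 version 2, HTSeq and edgeR appear in the submitters' processing notes; their settings, strand included, were not stated. Each column was matched to its sample by the number in its heading. The other value used is the total exon length of each gene in bases, per the file headers. Library sizes were scaled with TMM (edgeR 4.0.16, R 4.3.3), with factors of 0.955 for Bcat_Only and 1.05 for Met_Bcat. Ratios of CPM carry a 95% exact interval conditional on the summed reads, and shares an exact binomial one. PCR copies cannot be told from separate molecules here, so intervals and the floor of 3 reads (0.163 and 0.142 CPM) cover counting error only. RPKM was computed here from CPM and exon length. Newer gene symbols came from the GRCm38 annotation by identifier, which named 107 of 109 members, 5 of them differently. The procedure was tested on simulated data. These held counting error only, with equal numbers of genes raised and lowered. They could not test spread between animals or an uneven balance of higher and lower genes. The members, gene lists and naming rule were chosen with earlier results of these data known. The rule named all members past the size rule, the 5 highest per length in either library, the highest of each role, those nearest the minimum, and up to 4 genes of each other list; further members are named for their role and were chosen after their values were seen. Alternatives changed the scaling (total counts, upper quartile, DESeq2 1.42.0 size factors, luminal markers), minimum, pseudocount and size rule.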

Additional observations from a re-analysis of the deposited data

How the results depend on the processing

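With 1 library per genotype no replicate could be left out. No paired analysis was possible because each genotype has 1 library and no test was made. The counts of 5 higher and 23 lower members changed by over 1.5 times with a 4-fold rule (3 and 9), and with a minimum of 10 CPM, where 2 were higher. The median log2 ratio of the members, −0.51, was below 0 under every alternative run: −0.38 with total counts, −0.51 with DESeq2 size factors, −0.44 with upper quartile factors, −0.94 with luminal scaling, −0.51 with a minimum of 0.2 CPM, −0.35 with none, −0.45 and −0.52 with pseudocounts of 2 and 0.1 CPM, and −0.57 as a mean. Role medians near 0 turned sign: galactosyltransferases from −0.0044 to 0.12 with total counts and 0.061 with upper quartile factors, β1,4-N-acetylgalactosaminyltransferases from −0.017 to 0.11 and 0.048, and fucosyltransferases from −0.11 to 0.020 with total counts. Galntl4 passed the rule as higher with total counts, and Mgat1, Mgat4a, Galnt3, Galnt10 and Fut4 as lower with luminal scaling. The cause of these changes is the shift of every ratio by the scaling. Genes under about 20 reads, such as Hs3st6, St8sia2 and B4galnt3 in Bcat_Only, have wide intervals.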

Other observations

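The family stems miss genes that carry an older symbol in the deposited table. Wbscr17, named Galnt17 in the newer annotation and so a further gene of the O-glycan initiating family, had 285 reads (15.5 CPM) in Bcat_Only against 44 (2.09 CPM) in Met_Bcat, 7.41-fold lower (5.38 to 10.4). The genes now named Mgat4d and Mgat4e had 0 reads in Bcat_Only and 0 and 2 reads in Met_Bcat.

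Low-count sialyltransferase, sulfotransferase and B3gnt genes below the minimum lay on both sides, but only lower genes passed the 2-fold rule. With no minimum 5 members were higher, as before, and 25 were lower, the added ones being Fut1 and St8sia3. St8sia3 had 9 reads against 0. That is 3.43-fold lower in Met_Bcat when 3 reads are put in place of 0, and at least 2.26-fold by the near end of the exact interval. St8sia5 had 0 and 10 reads, 2.91-fold higher by the same floor and at least 1.96-fold by the interval. Hs3st5 had 2 and 15 reads, a ratio of 6.56 (1.52 to 59.1), and B3gnt6 had 9 and 1 reads, 10.3-fold lower (1.43 to 451). St6galnac5 had 26 and 10 reads, 2.97-fold lower (1.39 to 6.91), and Chst4 had 5 and 0 reads, at least 1.05-fold lower by the interval.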
